A study of Mus musculus with 12 samples.

Results

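The 39 genes described here encode the nuclear-encoded subunits of respiratory complexes II to V and cytochrome c, the electron carrier between complexes III and IV. They were chosen by a list of gene symbols whose rule uses no measured value, drawn up with earlier results of these data known, from the 24062 genes of a count table of mouse oocytes. All 39 symbols were found: 4 of complex II, 9 of complex III, 1 of cytochrome c, 10 of complex IV and 15 of complex V (ATP synthase, under its older Atp5 symbols). Of these, 35 were among the 9935 genes with enough counts to be tested. Complex II passes electrons from succinate to ubiquinone and belongs to both the respiratory chain and the citric acid cycle. Complex III passes them on to cytochrome c and complex IV passes them to oxygen, and the proton gradient built along the way drives ATP synthesis by complex V. Oocytes make most of their ATP by this route and hold a large stock of maternally inherited mitochondria and messenger RNA.

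RNA was sequenced from 12 pools of 4 oocytes, with 6 pools for the high-fat diet (HFD) and 6 for the control diet (CD). Females ate a modified form of D12492 high-fat, high-calorie chow (HFD) or D12492 (CD) for 9 weeks, 6 females per diet, and were then mated with vasectomized males, so that the oocytes were not fertilised. All females ate CD during mating, and oocytes were collected at day 0.5 after mating. The labels give neither the strain and age of the females nor the female behind each pool, so p-values measure only the spread between pools, which may in part be technical. The CD carries the product code of the diet that the HFD modifies, so its fat content is not stated here either. In pools of whole cells, a difference in RNA per cell and a difference in the cells that went into a pool cannot be told apart.

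Gene counts summed to 8409491 to 13793598 per library, and levels are given as CPM, the reads of a gene relative to all gene reads of its library after TMM scaling. The 12 oocyte marker genes examined together reached 14013 to 48246 CPM in HFD and 12091 to 33364 CPM in CD. Of 16 cumulus and granulosa markers, 2 passed the count filter, with summed levels of 105 to 1807 CPM in HFD and 123 to 1349 CPM in CD, and Amh, Ptx3 and Pgr were at 0. Serpine2 alone gave 71.0 to 1764 CPM of that sum in HFD and 93.7 to 1300.2 CPM in CD. The 8 oviduct markers summed to 7.55 to 110 CPM in HFD and 13.9 to 216 CPM in CD, and the 8 blood and immune markers to 2.49 to 9.39 and 2.19 to 7.40 CPM, with both beta-globin genes at 0. HFD replicate 3 and CD replicate 3 stood apart for the respiratory genes: the former was the highest of the 12 libraries in 27 of the 35 tested genes, and the latter was the lowest of 12 in 21. In HFD replicates 1, 2, 4 and 6 every gene count was even, whereas 47.9 to 49.2% of gene counts were even in the other libraries. Since these 4 libraries were all HFD, whatever gave the even counts cannot be told apart from diet in them.

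Most of the 35 tested respiratory genes had more reads in HFD pools, but none passed the adjusted test. In edgeR's quasi-likelihood test with Benjamini-Hochberg adjustment, 0 of the 35 and 0% of the 9935 tested genes had an adjusted p under 0.05, and the smallest adjusted p of any gene was 0.0913. At an unadjusted p under 0.05, 29 of the 35 were higher in HFD, where 13.4% of all tested genes were, and 1 (Sdha) was lower, where 8.89% were. The fitted change was above 0 for 32 of the 35, where it was for 51.8% of all tested genes, with a median log2 fold change (HFD minus CD) of 2.13 beside 0.04 over all tested genes. In DESeq2, 13 respiratory genes rose at an adjusted p under 0.05 and 0 fell, where 6.03% of genes rose and 3.45% fell. A further 10 of the 35 had no adjusted p in DESeq2. With limma-voom and library weights, 1 of the 35 (Cycs) passed, where 0.352% of all tested genes did.

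The HFD and CD values did not overlap in 5 of the 35 genes (Uqcrb, Cycs, Cox6a1, Cox6b1 and Atp5h), all with HFD above, where 1.17% of all tested genes lay that way. None lay wholly below, where 1.28% of all tested genes did. Without HFD replicate 3, 36 members passed the filter, their median change was 1.10, and 20 were higher at an unadjusted edgeR p under 0.05, where 9.26% of genes were. Sdha was then the 1 member lower at that p, where 7.94% of genes were. The diets then did not overlap in 4 genes (Uqcrb, Cycs, Cox6a1 and Atp5h), where 1.88% of genes lay that way. In the libraries with odd counts alone, HFD replicates 3 and 5 against the 6 CD pools, all 39 members had enough counts, the median was 2.69, and 19 members rose in edgeR at an adjusted p under 0.05, where 4.02% of genes did. HFD replicate 3 is then 1 of 2 HFD pools. The count filter was run again there, so that a gene could pass through these 2 HFD pools alone. There 18 members lay wholly above CD, where 8.18% of genes did, and 1 (Sdha) lay wholly below, where 6.93% of genes did. The 18 included Atp5l, which failed the filter when all libraries were used. With total counts as the scaling, 2 members lay wholly above (0.835% of genes), and without both replicates numbered 3, 4 did (1.93% of genes).

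**Figure D1:**
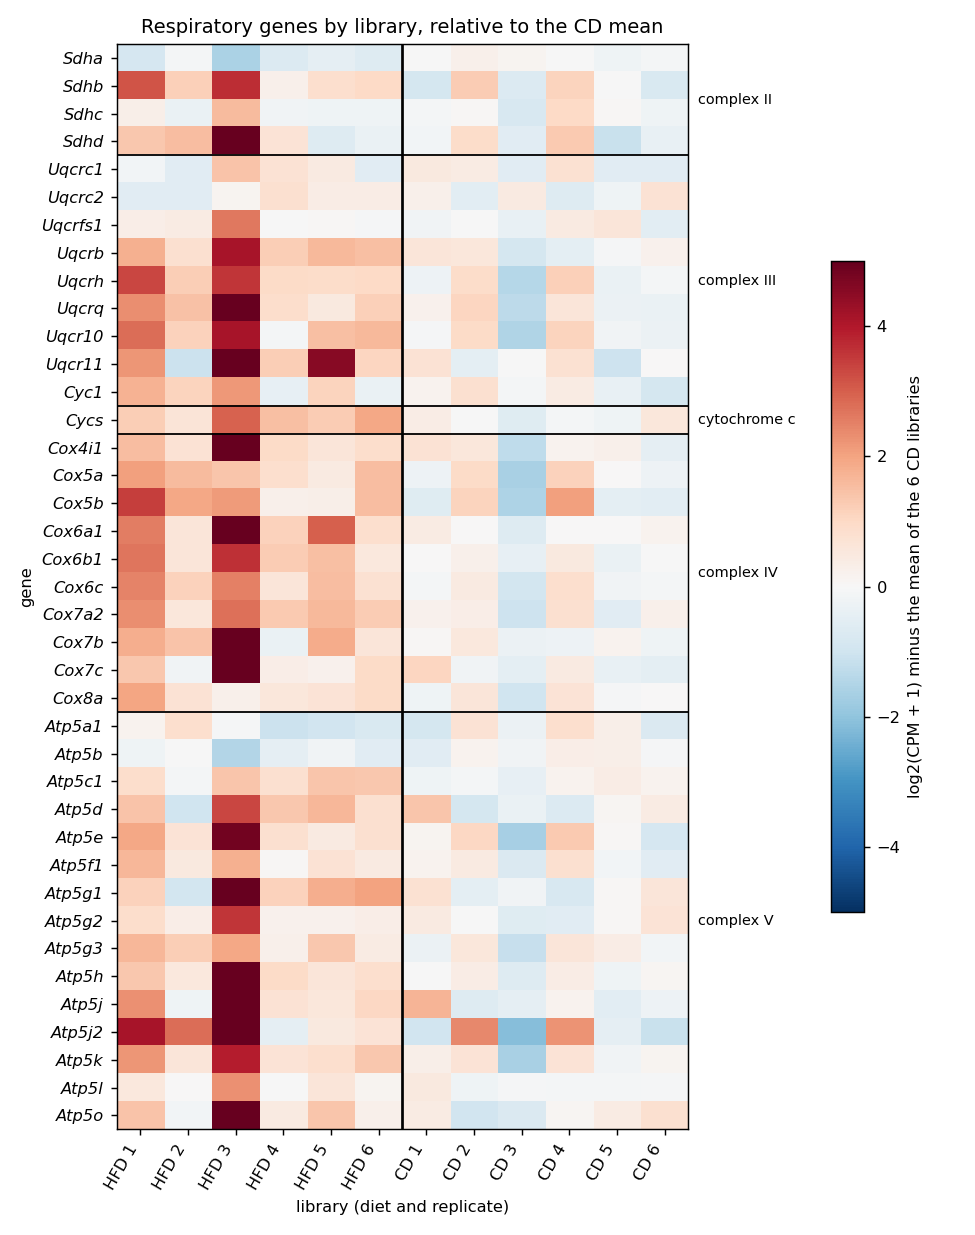
Colour map of the 39 respiratory genes (vertical axis, by complex) in the 12 libraries (horizontal axis); colour is log2(CPM + 1) relative to the average over the 6 CD libraries, with the scale ending at 5 either way. HFD replicate 3 holds the darkest red column, CD replicate 3 the most blue among CD, and the rows of Sdha and Atp5b lean blue in HFD.

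Most of these genes have short transcripts, and across the whole table the fitted diet change was higher for shorter transcripts. This trend varied between pools. The slope of log2 level, relative to each gene's mean, on log2 length ran from -0.44 to 0.0075 in HFD. In CD it ran from -0.093 to 0.54, so the diets overlapped. The median transcript length was 747.5 nt for the 35 tested members and 2651 nt for all tested genes with a length. Among all tested genes, the median log2 fold change was 1.55 under 600 nt, 1.07 from 600 to 1000 nt, 0.44 from 1000 to 2000 nt and -0.20 above 2000 nt. Within these classes the respiratory medians were 2.38 (10 genes), 2.14 (11 genes), 1.01 (10 genes) and 0.74 (4 genes). Of the members, 9 of 10, 11 of 11, 7 of 10 and 2 of 4 lay above the median of their own length class. When each library's trend with length was removed, the respiratory median fell to 0.61 beside 0.02 over all genes. By class, from the shortest to the longest, the medians of all genes were then 0.18, 0.13, 0.09 and -0.03. The respiratory medians were 0.58, 1.06, 0.53 and 0.88. Of the 35, 30 stayed above 0, and 13 were higher at an unadjusted edgeR p under 0.05, where 8.39% of genes were. None was lower at that p, where 6.94% of genes were. In that fit only Cycs kept its diets apart, where 0.453% of genes did so with HFD above. The 13 higher genes were Sdhb, Sdhd, Uqcrq, Uqcr11, Cycs, Cox4i1, Cox6a1, Cox7a2, Cox7b, Atp5g1, Atp5h, Atp5j and Atp5o. The fit still held HFD replicate 3, and the trend was not removed with that pool left out. Changes of these genes without that pool, as fitted with no length correction, are given below.

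**Figure D2:**
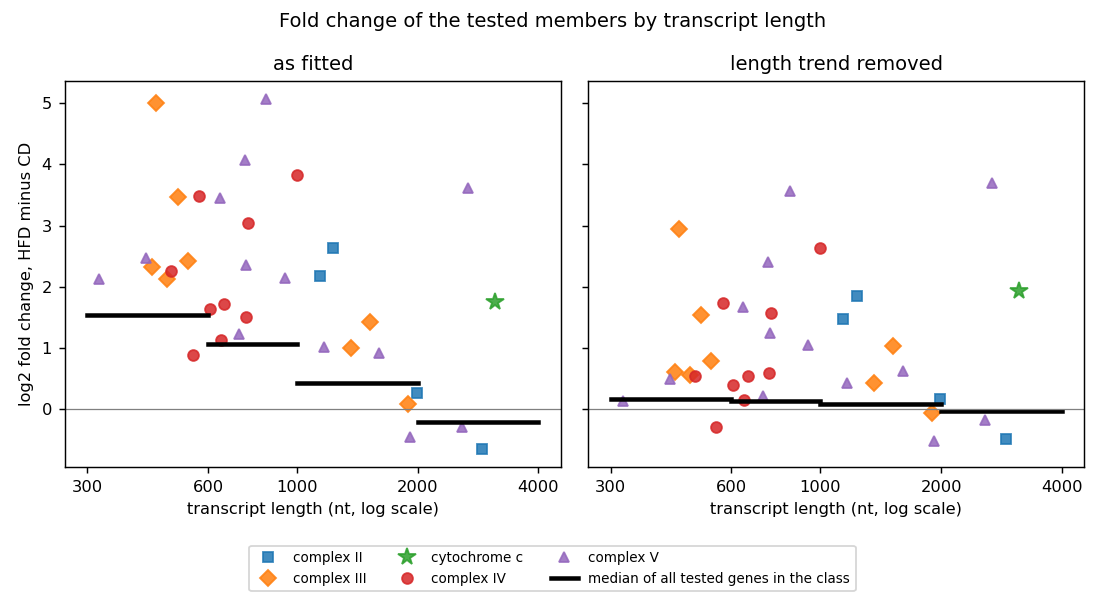
Log2 fold change (HFD minus CD, vertical axis) of the 35 tested respiratory genes against transcript length (nt, log scale), as fitted on the left and with the length trend removed on the right; bars give the median of all tested genes in each length class. Most members under 1000 nt lie above the bar on the left, and Cycs (star), at over 2000 nt, keeps its place when the trend is removed.

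The promoters of 4 members are shown as examples. Of these, 3 had HFD values wholly above CD (Cycs, Cox6a1 and Cox6b1), and Atp5b had the other direction at a high level. Uqcrb and Atp5h, which also lay wholly above CD, and Sdha, which was lower at an unadjusted p under 0.05, are not shown. Uqcrb had no promoter on hand, whereas Atp5h and Sdha had. The windows are RefSeq sequences of the GRCm38.p6 build, read 5′ to 3′ on the gene's strand and ending before the first exon of a protein-coding transcript. Capitals mark matches on either strand to the NRF1 core GCATGCGC, its full form with a further GC before the core, the CREB motif TGACGTCA or the SP1 motif GGGCGG. NRF1 is a transcription factor known to bind promoters of respiratory genes, and CREB is known to act on the cytochrome c promoter.
Cycs, chr6:50566570-50566819, minus strand: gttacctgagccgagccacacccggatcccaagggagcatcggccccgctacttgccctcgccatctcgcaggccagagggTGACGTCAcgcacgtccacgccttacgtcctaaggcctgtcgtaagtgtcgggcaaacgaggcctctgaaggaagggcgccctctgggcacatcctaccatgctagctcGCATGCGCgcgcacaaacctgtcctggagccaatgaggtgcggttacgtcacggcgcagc
Cox6a1, chr5:115348982-115349208, minus strand: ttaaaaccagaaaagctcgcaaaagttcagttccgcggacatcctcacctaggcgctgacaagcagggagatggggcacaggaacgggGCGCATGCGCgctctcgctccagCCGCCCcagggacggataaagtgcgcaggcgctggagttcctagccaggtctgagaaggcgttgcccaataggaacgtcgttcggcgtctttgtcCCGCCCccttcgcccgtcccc
Cox6b1, chr7:30626152-30626364, minus strand: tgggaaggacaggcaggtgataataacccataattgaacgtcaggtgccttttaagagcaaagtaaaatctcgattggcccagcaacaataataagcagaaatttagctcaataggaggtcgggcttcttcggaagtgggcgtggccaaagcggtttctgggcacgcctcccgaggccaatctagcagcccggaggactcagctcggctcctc
Atp5b, chr10:128083057-128083272, plus strand: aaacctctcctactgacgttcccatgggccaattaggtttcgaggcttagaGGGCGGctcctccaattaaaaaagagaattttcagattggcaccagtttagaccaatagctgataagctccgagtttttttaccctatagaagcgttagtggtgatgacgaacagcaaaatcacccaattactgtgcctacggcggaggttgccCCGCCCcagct
The Cycs window holds 1 NRF1 core and 1 CREB match, the Cox6a1 window holds a full NRF1 match and 2 SP1 matches, and the Atp5b window holds 2 SP1 matches. These letters do not occur in the Cox6b1 window.

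A promoter of 300 bases, from 250 before to 50 after the start, was on hand for 31 of the 39 members and for 32851 entries in all. Member percents are per gene, with a match in any of its promoters (Atp5c1, Atp5d and Atp5j had 2 each), and those of all entries are per promoter. The full NRF1 motif was in 4 of the 31 (12.9%) and in 0.971% of all entries. The core, which lies within the full motif and was searched after the full motif was seen to miss Cycs, was in 8 (25.8%) and in 2.71% of all. Members with the core were Sdhb, Uqcrc1, Uqcr11, Cycs, Cox6a1, Atp5g2, Atp5k and Atp5l. The CREB motif was in 2 members (Cycs and Uqcrfs1), 6.45% beside 1.79%, and the ETS motif CCGGAAGT in 4 (Uqcrh, Uqcr11, Cox8a and Atp5h), 12.9% beside 3.89%. The ESRRA motif TCAAGGTCA was in 2 (Sdhd and Atp5g3), 6.45% beside 0.423%, and the YY1 motif AAGATGGC in 3 (Atp5f1, Atp5j and Atp5j2), 9.68% beside 2.75%. The short SP1 motif was as common in the members (35.5%) as in all entries (35.7%). Both strands were read, and a match is a description of the letters and not a measured binding site.

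The subunits of complex II differed in direction. Sdha, on chr13:74322254-74350280 of mm10, encodes the flavoprotein that oxidises succinate, and was read at 76.8, 146 and 216 CPM (lowest, median and highest of the 6 pools) in HFD and 195, 226 and 277 CPM in CD. All 6 HFD values lay under the CD mean, with some overlap at the top. The log2 fold change was -0.66 (SE 0.25, edgeR adjusted p = 0.152, DESeq2 adjusted p = 0.0864), and the unadjusted edgeR p was 0.0194. Without HFD replicate 3, its lowest pool, it was -0.53. Sdhb encodes the iron-sulfur subunit that takes electrons from the flavin, and had 5.91, 11.7 and 74.8 CPM in HFD and 2.17, 3.68 and 13.0 CPM in CD. The change of Sdhb was 2.17 on the log2 scale (SE 0.71, edgeR adjusted p = 0.112), it rose in DESeq2 (adjusted p = 0.0225), and without HFD replicate 3 it was 1.55.

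Sdhc and Sdhd encode the membrane anchors where ubiquinone is reduced. Sdhc had 15.1, 16.6 and 59.8 CPM in HFD and 10.7, 18.8 and 39 CPM in CD. Its diets overlapped, with the higher median in CD, and the log2 fold change of 0.26 (SE 0.42, edgeR adjusted p = 0.752) became -0.24 without HFD replicate 3. Sdhd had 5.32, 19.8 and 324 CPM in HFD and 3.56, 7.31 and 23.4 CPM in CD, and its top value was HFD replicate 3. The log2 fold change of Sdhd was 2.63 (SE 0.95, edgeR adjusted p = 0.135) with that pool and 0.54 without it. Sdhd starts back to back with Timm8b, a chaperone of the mitochondrial intermembrane space, which had 289, 476 and 603 CPM in HFD and 68.0, 172 and 193 CPM in CD. Timm8b did not overlap between diets (log2 fold change 1.57, SE 0.29, edgeR adjusted p = 0.0913, DESeq2 adjusted p = 0.000575), whereas its neighbour Sdhd did. For the 4 genes of complex II the median log2 fold change was 1.22, and 0.15 without HFD replicate 3.

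In complex III, the fitted change was above 0 in 8 of 8 tested genes, with a median of 2.23, and over the same 8 genes of 1.38 without HFD replicate 3 and 0.70 with the length trend removed. DESeq2 called 4 of them higher (Uqcrb, Uqcrh, Uqcr10 and Uqcr11), where 6.03% of genes rose, and gave no adjusted p for 2. Uqcrfs1 encodes the Rieske iron-sulfur protein and had 6.84, 8.44 and 49.9 CPM in HFD and 4.75, 6.67 and 11.4 CPM in CD. Cyc1 encodes cytochrome c1, which hands electrons to cytochrome c, and had 1.18, 5.33 and 12.2 CPM in HFD and 0.571, 1.98 and 4.04 CPM in CD. Both overlapped between diets. The log2 fold change was 1.0 for Uqcrfs1 (SE 0.53, edgeR adjusted p = 0.277) and 1.42 for Cyc1 (SE 0.63, edgeR adjusted p = 0.201), and without HFD replicate 3 that of Uqcrfs1 was 0.10.

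The core proteins Uqcrc1 and Uqcrc2, which form the matrix-facing part of complex III in equal number, had very unequal reads. Uqcrc2 had 125, 220 and 323 CPM in HFD and 116, 190 and 305 CPM in CD, whereas Uqcrc1 had 0, 0.674 and 2.99 CPM in HFD and 0, 0.480 and 1.49 CPM in CD. Uqcrc1 failed the count filter and was the lowest of the 39 members per length in both diets. The ranges of Uqcrc2 overlapped almost wholly, with a log2 fold change of 0.09 (SE 0.32, edgeR adjusted p = 0.894). Uqcrc2 shares 504 nt of exon with Pdzd9 on the opposite strand, and the kit does not mark strand, so reads of the pair cannot be told apart there.

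Uqcrb, on chr13:66900617-66905378, binds near the ubiquinone site. It was read at 11.8, 20.8 and 127 CPM in HFD and 3.02, 6.84 and 10.3 CPM in CD, so every HFD pool was above every CD pool. Its log2 fold change was 2.42 (SE 0.60, edgeR adjusted p = 0.0913, DESeq2 adjusted p = 0.00284), 1.43 without HFD replicate 3 and 0.78 with the length trend removed. Uqcrh encodes the hinge protein at the cytochrome c docking side and had 55.2, 64.5 and 361 CPM in HFD and 10.3, 25.6 and 67.4 CPM in CD. Its diets overlapped only at the top of CD. The change of Uqcrh was 2.13 (SE 0.61, edgeR adjusted p = 0.0956, DESeq2 adjusted p = 0.0107), and 0.55 with the length trend removed.

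The other small subunits of complex III were more uneven between pools. Uqcr10 had 8.04, 27.4 and 165 CPM in HFD and 2.36, 7.84 and 19.8 CPM in CD, which is a change of 2.33 on the log2 scale (SE 0.69, edgeR adjusted p = 0.0968, DESeq2 adjusted p = 0.0107), and 1.51 without HFD replicate 3. Uqcrq had 9.21, 17.1 and 389 CPM in HFD and 1.89, 6.17 and 14.2 CPM in CD, a change of 3.47 (SE 0.96, edgeR adjusted p = 0.0944) that was 1.32 without HFD replicate 3. Uqcr11 had 0.184, 7.63 and 253 CPM in HFD beside 0.210, 1.47 and 3.24 CPM in CD. Its lowest HFD pool was below its lowest CD pool, and its fitted change of 5.0 (SE 1.30, edgeR adjusted p = 0.0913, DESeq2 adjusted p = 0.00278) was 3.15 without HFD replicate 3.

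Cycs, on chr6:50562563-50566538, encodes somatic cytochrome c, the mobile carrier between complexes III and IV. Cycs was read at 65.9, 111 and 330 CPM in HFD and 26.8, 40.2 and 62.4 CPM in CD, that is 146 ± 95.3 (SD, n = 6) and 43.1 ± 12.8 CPM (SD, n = 6). The lowest HFD pool was above the highest CD pool, by a small margin. Its log2 fold change was 1.76 (SE 0.38, edgeR adjusted p = 0.0913, DESeq2 adjusted p = 0.00210, limma-voom adjusted p = 0.0455). Without HFD replicate 3 it was 1.33, and with the length trend removed it was 1.93, and its annotated transcript is over 2000 nt. It has near-identical copies among 3 annotated pseudogenes, and reads that align to more than 1 place went to no gene.

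**Figure D3:**
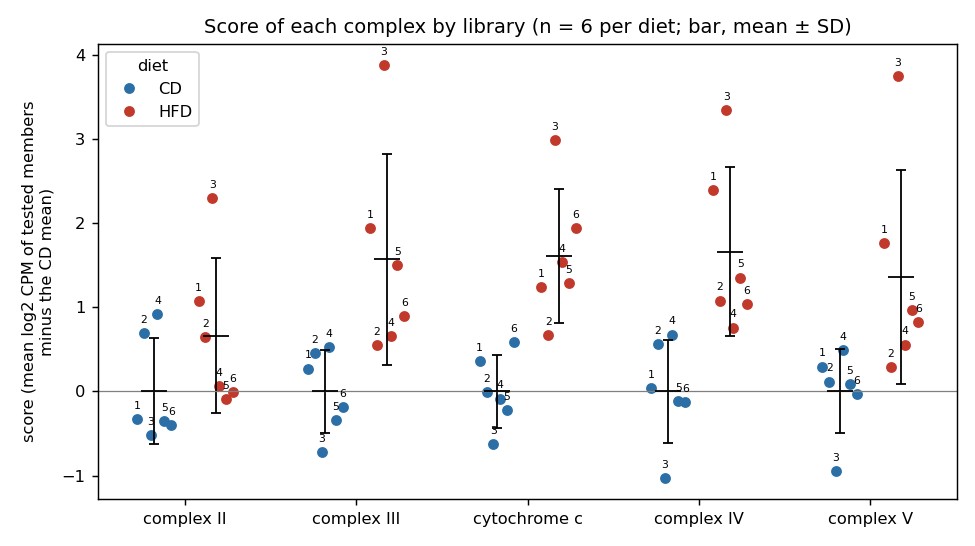
Score of each complex (vertical axis: average difference of its tested genes from CD, in log2 CPM) in each of the 12 libraries, with replicate numbers beside the points; bars are the mean ± SD of 6 libraries per diet. The HFD points lie above all CD points for complex III, cytochrome c and complex IV, HFD replicate 2 falls within CD for complex V, and the diets overlap for complex II.

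Each library was also summarised by a score, the average difference of its tested genes from CD in log2 CPM. Over all 35 genes, HFD replicates 1 to 6 scored 1.87, 0.60, 3.48, 0.60, 1.07 and 0.83, and CD replicates 1 to 6 scored 0.15, 0.37, -0.86, 0.58, -0.12 and -0.12. All 6 HFD pools were above the highest CD pool, with HFD replicates 2 and 4 close to CD replicate 4. The HFD mean ± SD was 0.66 ± 0.92 for complex II, 1.57 ± 1.25 for complex III, 1.61 ± 0.79 for cytochrome c, 1.66 ± 1.0 for complex IV and 1.35 ± 1.27 for complex V (n = 6), with CD SDs of 0.43 to 0.63. HFD pools above the highest CD pool numbered 2 of 6 in complex II, 6 of 6 in complex III, cytochrome c and complex IV, and 5 of 6 in complex V. On the plain CPM scale, where the most abundant genes weigh most, the 39 genes summed to 2503 to 7854 CPM in HFD and 1593 to 3184 CPM in CD, and 3 of 6 HFD pools were above the highest CD pool.

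In complex IV, the cytochrome c oxidase, all 9 tested genes were higher in HFD at an unadjusted edgeR p under 0.05, where 13.4% of all tested genes were. DESeq2 called 4 of the 9 higher (Cox6a1, Cox6b1, Cox6c and Cox7a2), where 6.03% of genes rose, and gave no adjusted p for 2. The genes examined encode the nuclear-made subunits that surround the catalytic core, and the core subunits encoded by mitochondrial DNA were not analysed here. The median log2 fold change of complex IV was 1.72, and 1.41 without HFD replicate 3 and 0.55 with the length trend removed. Cox6a1, on chr5:115345642-115348981, encodes a regulatory subunit that spans the inner membrane. It had 10.1, 28.6 and 298 CPM in HFD and 3.69, 6.46 and 8.59 CPM in CD, without overlap. Its change was 3.48 (SE 0.79, edgeR adjusted p = 0.0913, DESeq2 adjusted p = 0.000575), 2.06 without HFD replicate 3 and 1.74 with the length trend removed. Cox6b1, on chr7:30616861-30626151, encodes a subunit at the dimer interface on the intermembrane side. It had 14.1, 26.7 and 132 CPM in HFD and 6.99, 9.5 and 14 CPM in CD, which also did not overlap, though the nearest pools nearly met. Its change was 2.26 (SE 0.54, edgeR adjusted p = 0.0913, DESeq2 adjusted p = 0.00254), 1.61 without HFD replicate 3 and 0.55 with the length trend removed.

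Cox6c and Cox7a2 encode small membrane-spanning subunits and had more even values. Cox6c had 63.1, 108 and 244 CPM in HFD and 21.6, 38.7 and 74.6 CPM in CD, and Cox7a2 had 69.4, 132 and 325 CPM in HFD and 22.3, 55.9 and 82.1 CPM in CD. Both overlapped only between the lowest HFD and the highest CD pools. The log2 fold change was 1.64 for Cox6c (SE 0.41, edgeR adjusted p = 0.0913, DESeq2 adjusted p = 0.00668) and 1.72 for Cox7a2 (SE 0.40, edgeR adjusted p = 0.0913, DESeq2 adjusted p = 0.00433). Without HFD replicate 3 they were 1.39 and 1.41. Cox8a, the most abundant member per length in CD, had 248, 337 and 826 CPM in HFD and 103, 205 and 329 CPM in CD. Its change of 0.89 (SE 0.34, edgeR adjusted p = 0.158) turned to -0.28 with the length trend removed.

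Cox5a and Cox5b encode subunits on the matrix side. Cox5a had 291, 581 and 866 CPM in HFD and 67.4, 196 and 467 CPM in CD, with a log2 fold change of 1.14 (SE 0.41, edgeR adjusted p = 0.136). Cox5b had 89.1, 251 and 827 CPM in HFD and 24.6, 51.8 and 308 CPM in CD, with a change of 1.5 (SE 0.66, edgeR adjusted p = 0.203). Each diet had high and low pools for both genes, so that CD replicate 4 was above HFD replicates 4 and 5. Leaving out HFD replicate 1 brought the change of Cox5b to 0.90, and leaving out CD replicate 4 brought it to 2.17.

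The remaining genes of complex IV rested more on 1 pool. Cox4i1, the largest nuclear-encoded subunit, had 9.51, 12.1 and 266 CPM in HFD and 1.89, 7.09 and 10.3 CPM in CD. Its log2 fold change was 3.05 (SE 0.90, edgeR adjusted p = 0.0968) with HFD replicate 3 and 0.93 without it. Cox7b had 2.84, 14 and 286 CPM in HFD and 2.93, 3.65 and 6.05 CPM in CD, and its change went from 3.82 (SE 1.0, edgeR adjusted p = 0.0913) to 1.43 without that pool. Cox7c failed the count filter, with 0.368, 1.47 and 130 CPM in HFD and 0.0945, 0.297 and 2.26 CPM in CD. These 3 genes share the pattern of a single HFD pool far above the rest.

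**Figure D4:**
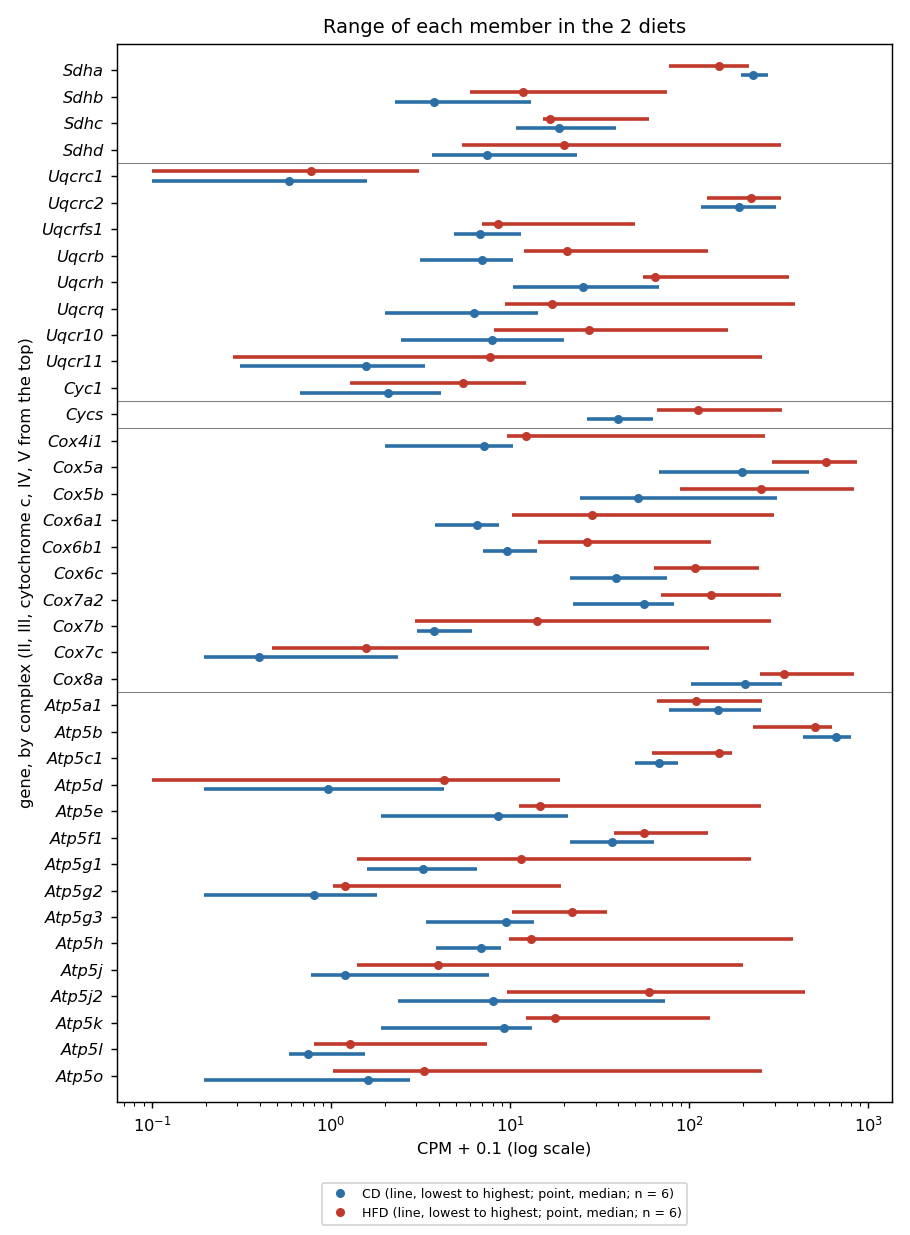
Range of each of the 39 genes in the 6 HFD and 6 CD libraries (horizontal axis, CPM + 0.1, log scale; lines run from the lowest to the highest library, points are medians; vertical axis, genes by complex). The lines are apart for Uqcrb, Cycs, Cox6a1, Cox6b1 and Atp5h, and the HFD medians of Sdha, Atp5a1 and Atp5b lie left of the CD medians.

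In complex V, the change was above 0 in 11 of 13 tested genes, with a median of 2.14, of 1.03 without HFD replicate 3 and of 0.63 with the length trend removed. The catalytic head is built of alternating alpha and beta subunits around a rotating shaft. Atp5a1 (alpha) had 66.2, 110 and 255 CPM in HFD and 77.1, 144 and 253 CPM in CD. Atp5b (beta, which holds the catalytic sites), on chr10:128083273-128090391, had 227, 505 and 625 CPM in HFD and 429, 661 and 796 CPM in CD. All 6 HFD values of Atp5b lay under the CD mean, but the ranges overlapped. The log2 fold change was -0.28 for Atp5a1 (SE 0.40, edgeR adjusted p = 0.712) and -0.45 for Atp5b (SE 0.27, edgeR adjusted p = 0.334), so that neither passed a test. With Sdha, these were the 3 members of negative fitted change.

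The shaft genes differed among themselves. Atp5c1, the gamma subunit that turns within the head, had 61.5, 146 and 173 CPM in HFD and 49.5, 67.7 and 86.1 CPM in CD, and 5 of 6 HFD pools were above every CD pool. The change of Atp5c1 was 1.02 (SE 0.28, edgeR adjusted p = 0.0944, DESeq2 adjusted p = 0.0173) and 0.93 without HFD replicate 3. Atp5d (delta) had 0, 4.2 and 18.9 CPM in HFD and 0.0961, 0.860 and 4.16 CPM in CD, and Atp5e (epsilon) had 11.1, 14.5 and 253 CPM in HFD and 1.80, 8.42 and 21.1 CPM in CD. Both overlapped between diets. Their changes were 2.14 (SE 1.0, edgeR adjusted p = 0.223) and 2.48 (SE 0.87, edgeR adjusted p = 0.127), and 1.28 and 0.75 without HFD replicate 3.

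The peripheral stalk keeps the head from turning with the shaft. Atp5h (subunit d), on chr11:115415689-115419962, had 9.76, 13.0 and 377 CPM in HFD and 3.78, 6.82 and 8.84 CPM in CD, without overlap. The change of Atp5h was 3.44 (SE 0.96, edgeR adjusted p = 0.0946), and 0.92 without HFD replicate 3, whose value was far above the other HFD pools. Atp5o (OSCP, which joins stalk and head) had 0.921, 3.20 and 255 CPM in HFD and 0.0961, 1.51 and 2.66 CPM in CD, and Atp5j (F6) had 1.29, 3.86 and 201 CPM in HFD and 0.673, 1.09 and 7.5 CPM in CD. The change was 5.08 (SE 1.47, edgeR adjusted p = 0.0962) for Atp5o and 4.08 (SE 1.25, edgeR adjusted p = 0.105) for Atp5j, and 1.04 and 1.09 without HFD replicate 3. Atp5f1 (subunit b) was more even, at 37.8, 55.8 and 127 CPM in HFD and 21.5, 37.0 and 63.7 CPM in CD, with a change of 0.92 (SE 0.38, edgeR adjusted p = 0.172). Atp5j shares 182 nt of exon with Gabpa and Atp5f1 shares 337 nt with Wdr77 and 203 nt with Gm42890, all on the opposite strand. Such overlaps also exist for Cox5a (269 nt, Gm26631), Atp5o (164 nt, D430001F17Rik), Atp5l (133 nt, Gm30934), Atp5a1 (129 nt, Haus1) and Uqcrb (50 nt, Gm10767). Reads of these pairs cannot be told apart there either.

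The rotating ring of complex V is made of 1 protein that 3 genes encode with different import sequences. Atp5g3 had 10.2, 22.2 and 34.7 CPM in HFD and 3.31, 9.41 and 13.6 CPM in CD, with a log2 fold change of 1.22 (SE 0.42, edgeR adjusted p = 0.121, DESeq2 adjusted p = 0.0438). Atp5g1 had 1.29, 11.4 and 221 CPM in HFD and 1.49, 3.15 and 6.42 CPM in CD, with a change of 3.61 (SE 1.01, edgeR adjusted p = 0.0956), and 1.39 without HFD replicate 3. Atp5g2 failed the filter, with 0.921, 1.10 and 19 CPM in HFD and 0.0945, 0.703 and 1.71 CPM in CD. Atp5g3 gave 46.5 to 89.3% of the summed CPM of the 3 genes in CD. In HFD it gave 40.2 to 89.9% in 5 pools and 12.6% in HFD replicate 3, where Atp5g1 gave 80.5%. HFD replicate 3 had the highest Atp5g1 share and the lowest Atp5g3 share of the 12 pools.

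The membrane-embedded accessory subunits closed the set. Atp5k (subunit e, which helps complex V form dimers) had 12.2, 17.7 and 131 CPM in HFD and 1.80, 9.16 and 13.1 CPM in CD. It rose in DESeq2 (adjusted p = 0.0161), with a log2 fold change of 2.13 (SE 0.65, edgeR adjusted p = 0.104) that was 1.17 without HFD replicate 3 and 0.14 with the length trend removed. Atp5l (subunit g) failed the filter, with 0.709, 1.17 and 7.37 CPM in HFD and 0.480, 0.645 and 1.45 CPM in CD, and has near-identical copies among 8 annotated pseudogenes. Atp5j2 (subunit f) had 9.46, 59.8 and 441 CPM in HFD and 2.27, 7.88 and 73.4 CPM in CD. Its change was 2.36 (SE 1.03, edgeR adjusted p = 0.201) and 1.53 without HFD replicate 3, the ranges overlapped widely, and both diets had a high and a low set of pools.

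Atp5j2 had high and low pools within both diets, and Cox5b and Cox5a were high in the same CD pools. Atp5j2 was at 248, 97.8 and 441 CPM in HFD replicates 1, 2 and 3 and at 9.46, 18.9 and 21.8 CPM in HFD replicates 4, 5 and 6. In CD it was at 73.4 and 66.1 CPM in replicates 2 and 4 and at 2.27 to 9.43 CPM in the other 4. Mos, the kinase that holds the egg in metaphase, was at 9.40 and 4.05 CPM in HFD replicates 1 and 2 and at 3.84 and 3.99 CPM in CD replicates 2 and 4, and at 146 to 1702 CPM in the other 8 pools. The 4 pools low in Mos were thus high in Atp5j2 for their diet, and HFD replicate 3 was high in both. In CD, Cox5b was at 163 and 308 CPM and Cox5a at 409 and 467 CPM in replicates 2 and 4, beside 24.6 to 52.4 and 67.4 to 216 CPM in the other CD pools. HFD did not divide that way: Cox5b was at 827 and 285 CPM in replicates 1 and 2 but at 325 and 218 CPM in replicates 3 and 6, and Cox5a was at 623 CPM in replicate 2 and 609 CPM in replicate 6. The part of this difference between pools in the diet comparison was not tested.

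**Figure D5:**
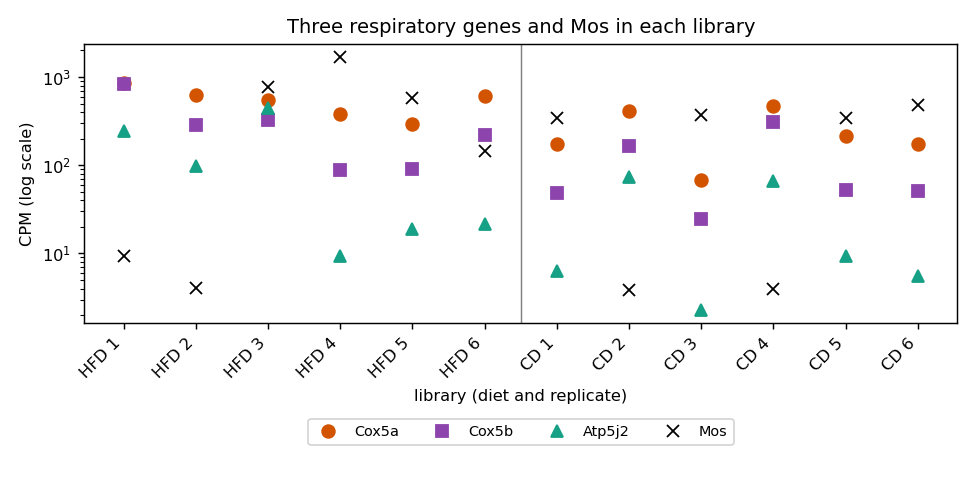
CPM (vertical axis, log scale) of Cox5a, Cox5b, Atp5j2 and Mos in each of the 12 libraries (horizontal axis), 1 point per gene and library. Mos is at 3.84 to 9.40 CPM in HFD replicates 1 and 2 and CD replicates 2 and 4, and within CD the 3 respiratory genes are highest in replicates 2 and 4.

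Levels between genes were compared per transcript length, as median CPM per kb. In CD the order was led by Cox8a (374), Atp5b (345) and Cox5a (303), followed by Uqcrc2 (100.1), Cox7a2 (84.8) and Sdha (78.0). In HFD it was led by Cox5a (901), Cox8a (613) and Cox5b (338), followed by Atp5b (263). Atp5j2 went from 10.5 in CD to 80.0 in HFD, and Cycs kept the 18th place with 12.9 and 35.6. Subunits of 1 complex lay far apart: beside Atp5b, Atp5d was at 0.924 in CD and 4.51 in HFD, and beside Uqcrc2, Uqcrc1 was at 0.291 in CD and 0.407 in HFD. The CD ranges of Cox8a, Atp5b and Cox5a overlap, and their order is a description.

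Of the 39 genes, 4 failed the count filter (Uqcrc1, Cox7c, Atp5g2 and Atp5l), and 5 passed with fewer than 6 CD libraries above the minimum (Uqcr11, Cyc1, Atp5d, Atp5j and Atp5o). These 5 genes needed HFD libraries to pass, which can favour genes higher in HFD. The count of genes above 0 and the median were therefore repeated both ways. The counts at an unadjusted p and in DESeq2 were not. All 5 were among the 29 members higher at an unadjusted edgeR p under 0.05. Uqcr11 was also among the 13 that rose in DESeq2. With the length trend removed, Uqcr11, Atp5j and Atp5o were among the 13 higher. The scores of complexes III and V include these 5 genes. Among the 30 genes that the CD libraries alone would pass, 27 had a change above 0, with a median of 1.94. With no filter, 36 of the 39 were above 0 and 3 below, with a median of 2.05, beside 0.13 over all genes. Near-identical transcripts of an annotated pseudogene exist for 12 members, at 95% identity or more over at least 200 nt. The 10 tested genes among them had a median change of 2.28, and the other 25 a median of 2.13. The share of reads set aside as aligned to more than 1 place was 26.8 to 35.7% in HFD and 18.6 to 26.5% in CD, and its part in the counts of these genes was not tested.

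Genes that work with these complexes were examined by lists. Of 26 tested assembly factors, which build the complexes without staying in them, 18 had a change above 0 and 8 below, with a median of 0.65, of 0.44 without HFD replicate 3 and of 0.20 with the length trend removed. DESeq2 called 6 of them higher and 0 lower, where 6.03% of genes rose and 3.45% fell. Cox14, which helps make the core subunit of complex IV, had 25.0, 50.7 and 256 CPM in HFD and 9.64, 15.9 and 22.8 CPM in CD, without overlap. The change of Cox14 was 2.31 (SE 0.53, edgeR adjusted p = 0.0913, DESeq2 adjusted p = 0.00210), and 1.44 without HFD replicate 3. Uqcc2, an assembly factor of complex III, had a change of 3.06 (SE 0.79, edgeR adjusted p = 0.0913), and of 1.33 without HFD replicate 3. All 8 tested genes of other isoforms and associated subunits had a change above 0, with a median of 2.0, of 1.68 without HFD replicate 3 and of 0.60 with the length trend removed. Ndufa4, a subunit associated with complex IV, had 131, 260 and 484 CPM in HFD and 38.4, 50.3 and 121 CPM in CD, without overlap (DESeq2 adjusted p = 0.00162). The associated complex V gene 2010107E04Rik rose too in DESeq2 (adjusted p = 0.00254), with a change of 2.25 (SE 0.52, edgeR adjusted p = 0.0913).

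For comparison, 31 of 32 tested complex I genes had a change above 0. Their median was 2.75, and 1.12 without HFD replicate 3 and 1.49 with the length trend removed. DESeq2 called 11 of them higher and 1 lower, where 6.03% of genes rose and 3.45% fell. Among complex I genes, Ndufb8 had a change of 1.94 (DESeq2 adjusted p = 0.000575) and Ndufa5 one of 3.28, which was 1.83 without HFD replicate 3. The difference between complex I and the other complexes was not tested. The carriers that exchange ATP, ADP and phosphate across the inner membrane had a median change of 0.38 over 4 genes, and none was called. Slc25a5 had a change of 0.89 (SE 0.36, edgeR adjusted p = 0.166) and the germ-cell form Slc25a31 one of 0.51 (edgeR adjusted p = 0.495). Among 8 tested regulators of respiratory genes the median was 0.16, with 5 above 0 and 3 below. Esrra, a nuclear receptor that acts on respiratory genes, had 9.87, 20.01 and 43.3 CPM in HFD and 3.97, 8.95 and 15.4 CPM in CD, and rose in DESeq2 (log2 fold change 1.26, SE 0.41, DESeq2 adjusted p = 0.0350, edgeR adjusted p = 0.112). Pprc1, a coactivator, had a change of -1.01 (SE 0.43, edgeR adjusted p = 0.191).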

How the data were processed

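RNA of 12 pools of oocytes was turned into full-length cDNA with a SMART-Seq kit and into libraries by tagmentation, per the labels' protocols, and the kit does not mark strand. The deposited values are whole-number read counts per gene. Per the submitters' processing notes, STAR, HTSeq 1.0.0, DESeq2 1.0.19 and the mm10 build were used, with no role or setting given. The table's 5 tally lines of unassigned reads, 62.3 to 72.9% of reads per library, were left out of library sizes and tests. Diet was taken from the labels.

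Counts were scaled by TMM, filtered with filterByExpr (about 1 CPM in at least 6 libraries, 9935 genes) and tested with edgeR 4.0.16 (quasi-likelihood, robust, diet alone, Benjamini-Hochberg adjustment at 0.05) in R 4.3.3. The fit was also run on simulated counts. These held no outlying library, length trend or all-even library, so that run does not bear on those features. The biological coefficient of variation was 64.0%, which limits the precision of each gene. Log2 CPM used a prior count of 2. The alternatives were DESeq2 1.42.0, limma 3.58.1 (voom with library weights), other scalings and filters, a replicate block, halved even counts, libraries with odd counts alone, removal of each library's length trend (lowess, span 0.5, on log2 length), and leaving out each library. Leaving out both replicates numbered 3 was added after seeing the data. Fits without some libraries ran the count filter again, with the size of the smaller diet group as the number of libraries needed.

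The members and lists were chosen with earlier results of these data known. All 39 members were named, and of each other list that is no marker list the 2 tested genes with the smallest edgeR p; Timm8b and Mos were chosen after their values were seen. Transcript lengths, positions and copies came from GENCODE M21 (GRCm38, matched by symbol; 95.5% of tested genes had a length), promoters from RefSeq. Correlations of same-numbered pools of the diets ran from -0.45 (replicate 4) to 0.55 (replicate 2), and replicates 2 and 6 correlated best with their own number. The main fit did not pair pools by number. Whether same-numbered pools share a batch cannot be told from these few values.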

Additional observations from a re-analysis of the deposited data

Results flagged for a closer look

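Within each diet, the highest and lowest library of each tested member and of each complex score were compared with the nearest of the others, as the gap divided by the whole range of log2 CPM. Of 78 groups checked, 12 passed Dixon's critical value, which chance passes in about 1 in 20 independent groups. These groups share the same pools, and the scores are built from the same genes, so the 12 cannot be set against that rate. All 12 involved replicate 3 of a diet. HFD replicate 3 was far above the other HFD pools for Sdhc (0.679), Uqcrfs1 (0.814), Uqcrb (0.706), Uqcrq (0.645), Cox4i1 (0.790), Atp5e (0.657), Atp5h (0.829) and Atp5o (0.728), and far below them for Atp5b (0.636). CD replicate 3 was far below the other CD pools for Cox6a1 (0.648), Atp5k (0.655) and the complex V score (0.638).

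HFD replicate 3 had 14755 genes with a count, beside 12229 to 12772 in the other HFD pools and 12344 to 13052 in CD. Its slope of log2 level against log2 transcript length was -0.44, the lowest of the 12, and that of CD replicate 3 was 0.54, the highest. The part of these values in the differences was not tested.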

How the results depend on the processing

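With 6 pools per diet and a wide spread, a member that misses the threshold is not shown to be alike in both diets. Of 803 member values under the alternatives, 9 in 3 members changed direction: Uqcrc2 with total counts alone (-0.049), with the length trend removed (-0.055) and without HFD replicate 4 (-0.085), CD replicate 2 (-0.015) or CD replicate 4 (-0.03), within a range of -0.085 to 0.24 when 1 library was left out; Sdhc with limma-voom (-0.071), without HFD replicate 3 (-0.24, the low end of a range up to 0.53) and without both replicates numbered 3 (-0.37); and Cox8a with the length trend removed (-0.28). Calls over all genes were 0 in edgeR, 769 in DESeq2 (13 of them members), 35 in limma-voom (1 member) and 456 with odd-count libraries alone (19 members). The median over members was 1.27 in limma-voom. With the length trend removed it was 0.61, and 0.70, 0.55 and 0.63 for complexes III, IV and V. Without both replicates numbered 3 it was 0.95, and 0.020, 1.20 and 0.85 for complexes II, III and V. The score difference of 1.41 then became 0.81, and the summed CPM difference of 1836 became 935. Summed CPM differences here are over the members that passed the filter in each fit, not over all members as above. The score difference was 0.59 with the length trend removed. Members wholly above CD numbered 2 with total counts (0.835% of all genes), 18 with odd-count libraries alone (8.18%, and 1 member wholly below, beside 6.93%), 1 with the length trend removed (0.453%) and 4 without both replicates numbered 3 (1.93%). Leaving out 1 library, with the count filter run again, gave 0 calls each time, over all genes and over members, medians of 1.10 to 2.31 over all members, 0.15 to 1.49 for complex II, 1.32 to 2.31 for III, 1.41 to 2.17 for IV and 1.03 to 2.45 for V, 4 to 9 members wholly above CD (1.05 to 2.51% of all genes, both highest without HFD replicate 2), score differences of 0.96 to 1.58 and summed CPM differences of 1077 to 2196. The lowest medians came without HFD replicate 3. The cause of these shifts was not tested. With the replicate block the median was 1.52 and edgeR again called 0 genes; the correlations of same-numbered pools ran from -0.45 to 0.55, and 2 of 6 correlated best with their own number. DESeq2, limma-voom and the block give no overlap, score or summed value of their own.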
